A study of Caenorhabditis elegans with 12 samples.

Results

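Arrested first-stage (L1) larvae whose parents had eaten bacteria producing double-stranded RNA against daf-2 were compared with arrested L1 larvae whose parents had eaten bacteria with an empty vector. The comparison uses 4 daf-2 RNAi libraries and 4 empty vector libraries, which are 8 of the 12 libraries of the study and were taken by their labels alone. All animals of both groups were hrde-1(tm1200) mutants, so every difference described here was measured in a strain without the normal form of that gene. The parents spent 72 h on HT115 bacteria that carried the RNAi or control plasmid, their embryos came out of the mothers by bleach treatment, and the larvae hatched without food and were frozen about 24 h after the bleach. Polyadenylated RNA of whole larvae, not of 1 tissue, was sequenced, with a kit that does not mark strand. The labels number the libraries 1 to 4 in each group as biological replicates.

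The product of daf-2 is the worm's receptor for insulin-like peptides. When the receptor is active, phosphoinositide 3-kinase and the AKT kinases keep the FOXO transcription factor DAF-16 out of the nucleus. When receptor signalling is low, DAF-16 enters the nucleus, and the worm's known responses include dauer formation, longer life, L1 arrest and stress resistance. Genes classically reported to rise with low signalling include superoxide dismutases, small heat shock proteins and metallothioneins, and genes reported to fall include yolk proteins and gut enzymes. HRDE-1 is a nuclear Argonaute protein that carries small-RNA silencing from parent to offspring in the germline. The question here was which transcripts of starved offspring differ after RNAi against daf-2 in the parents.

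The daf-2 RNAi libraries held 9640590 to 10502750 reads in genes, and the empty vector libraries 7737184 to 11490429. Ribosomal RNA took 18.7% to 35.3% of the gene counts in daf-2 RNAi libraries and 26.3% to 46.9% in empty vector libraries. The exact permutation test, two-sided, gave p = 0.143, where 0.0286 is the smallest p that 4 against 4 can give. The exact sign-flip test over the 4 pairs gave p = 0.250, where 0.125 is the smallest possible. Expression of major sperm proteins and of early embryonic genes was near the floor in both groups, with summed levels of 0.193 to 3.56 CPM and 4.34 to 14.4 CPM in daf-2 RNAi libraries against 0.587 to 2.24 CPM and 5.75 to 13.6 CPM in empty vector libraries. CPM are counts divided by the library size after TMM adjustment. The largest split among the 8 libraries did not follow the RNAi treatment: the leading principal component held 52.8% of the variance and placed replicates 2 and 4 of both groups on its positive side and replicates 1 and 3 of both groups on its negative side. Mitochondrially encoded genes took 5.51%, 0.950%, 2.67% and 0.646% of the gene counts in daf-2 RNAi replicates 1 to 4 and 3.03%, 0.747%, 3.21% and 0.633% in empty vector replicates 1 to 4, the same split. On the leading component daf-2 RNAi replicate 3 lay nearest 0, at -3.03. The next component held 16.3% of the variance. The groups did not overlap on it, but replicate 1 spanned most of it, at -38.46 under empty vector and 25.11 under daf-2 RNAi. The other empty vector libraries lay at -5.17 to -3.21, and the other daf-2 RNAi libraries at 0.06 to 14.01. Same-numbered libraries deviated together from their group means, with correlations of 0.358, 0.698, 0.219 and 0.622 over 9888 genes for replicates 1 to 4, so the comparison was made within replicate numbers.

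The targeted transcript was measured first. daf-2 RNAi larvae had 21.2, 60.1, 42.6 and 62.8 CPM of daf-2 in replicates 1 to 4, and empty vector larvae had 82.5, 66.4, 45.05 and 61.1 CPM. Only daf-2 RNAi replicate 1 lay clearly below its partner, and the groups overlapped. The log2 fold change was -0.50 ± 0.28 (SE; adjusted p = 0.798, Benjamini-Hochberg, by the quasi-likelihood test of edgeR), and it was -0.07 without replicate 1. Because the RNAi was given to the parents and the larvae were sampled unfed, the level in the larvae does not measure the knockdown in the parents.

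None of the 23 measured genes of the insulin receptor pathway passed the test, and their median log2 fold change was 0.03, between -0.06 and 0.13 when 1 replicate number was left out. daf-16 itself had 261, 276, 173 and 234 CPM in daf-2 RNAi larvae and 226, 284, 200 and 296 CPM in empty vector larvae. The kinase genes akt-1 and pdk-1 had log2 fold changes of 0.31 ± 0.13 and 0.41 ± 0.19 (edgeR adjusted p = 0.651 and 0.708). akt-1 was the member whose groups did not overlap: 159, 171, 167 and 177 CPM in daf-2 RNAi larvae lay above 134, 139, 122 and 150 CPM in empty vector larvae. hrde-1 was read at 1.78 to 4.92 CPM in daf-2 RNAi larvae and 2.46 to 4.56 CPM in empty vector larvae, and pitr-1, the target of the other RNAi of the study, at 184 to 290 CPM in daf-2 RNAi larvae and 179 to 240 CPM in empty vector larvae. Of 21 measured insulin-like peptide genes, none passed and 3 had a positive log2 fold change, with a median of -0.23 that was -0.45 without replicate 1 and 0.05 without replicate 3. The lowest p in that family belonged to ins-11, with 6.18, 2.09, 4.75 and 2.88 CPM in daf-2 RNAi larvae against 9.18, 4.56, 19.7 and 5.20 CPM in empty vector larvae (log2 fold change -1.16 ± 0.32, edgeR adjusted p = 0.269).

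Of 13817 genes tested, 24 passed the quasi-likelihood test of edgeR with the replicate number as a block at an adjusted p under 0.05 (0.174% of the genes). Among them 20 were higher in daf-2 RNAi larvae (0.145%) and 4 were lower (0.0289%). The higher genes include the superoxide dismutase genes sod-3 and sod-5, the DJ-1 relative djr-1.2, the metallothionein mtl-1, the desiccation protectant lea-1 and the UDP-glucuronosyltransferase ugt-1. A further 3 are fipr genes, a family of small peptides named after genes induced by fungal infection, and the lower genes include the cathepsin B-like protease cpr-4 and the acyl-CoA oxidase acox-3. All 24 had the same direction in 4 of 4 replicate pairs, and in 20 of them the libraries of the groups did not overlap at all. Among all genes, 215 were higher without overlap (1.56%) and 146 were lower without overlap (1.06%). The fit without the block called 4 genes, D1086.9, fipr-22, fipr-23 and cpr-4, all among the 24, and the other 20 had edgeR adjusted p of 0.0761 to 1.00 there. In the count tables the genes with a symbol among the higher ones are sod-3 (C08A9.1), sod-5 (ZK430.3), djr-1.2 (C49G7.11), mtl-1 (K11G9.6), lea-1 (K08H10.1), ugt-1 (AC3.7), fipr-22 (C37A5.2), fipr-23 (C37A5.4), fipr-26 (F53B6.8), grd-3 (W05E7.1), grd-10 (F09D12.1), ttr-15 (T07C4.5), paic-1 (B0286.3) and clx-1 (C50F7.2). The lower ones with a symbol are cpr-4 (F44C4.3), acox-3 (F58F9.7) and sup-6 (F58G1.10).

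**Figure D1:**
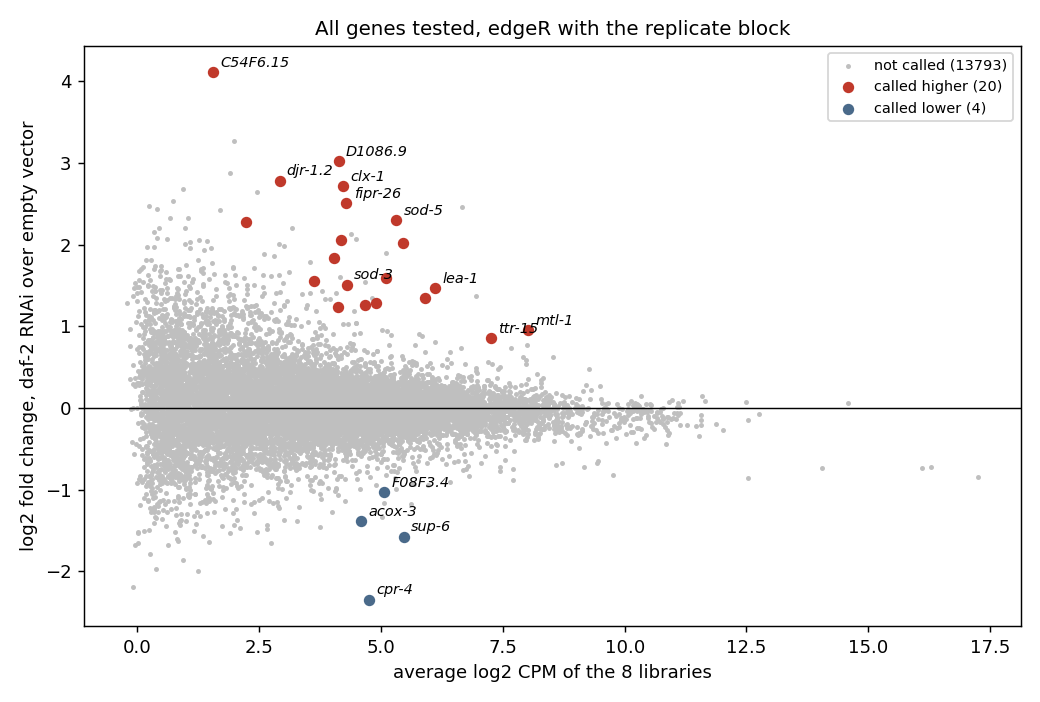
Average log2 CPM of the 8 libraries (x axis) against the log2 fold change of daf-2 RNAi over empty vector (y axis) for all 13817 genes tested, 1 point per gene. The 20 genes called higher (red) lie between 0.85 and 4.11, the 4 called lower (blue) between -2.35 and -1.03, and the median of all genes is 0.01.

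sod-5, which encodes a cytosolic copper/zinc superoxide dismutase, had 121, 48.2, 66.9 and 30.6 CPM in daf-2 RNAi replicates 1 to 4 and 12.18, 11.4, 18.4 and 7.48 CPM in empty vector replicates 1 to 4. Every daf-2 RNAi library lay above every empty vector library, and replicate 1 was the highest of all. The level was 4.93-fold higher in daf-2 RNAi larvae (SE 0.23 on the log2 scale, edgeR adjusted p = 0.00258). sod-3, the mitochondrial manganese enzyme and a much used reporter of DAF-16 activity, had 37.8, 24.1, 28.9 and 24.6 CPM in daf-2 RNAi larvae against 9.54, 9.21, 8.56 and 12.604 CPM in empty vector larvae. Its groups were apart as well, and both groups were tight, with a log2 fold change of 1.51 ± 0.21 (edgeR adjusted p = 0.0200). In the RefSeq annotation sod-3 overlaps lido-1, which had a log2 fold change of 0.01, and C08A9.3, for which there was no tested value. Without strand, reads from a stretch shared by these genes cannot be told apart. The counting set some reads aside as ambiguous, and how many of the shared reads went there was not tested. The other 3 superoxide dismutase genes did not pass. sod-1 averaged 138 ± 22.97 CPM in daf-2 RNAi larvae and 114 ± 25.1 CPM in empty vector larvae (SD, n = 4 each) and was higher in 4 of 4 pairs (log2 fold change 0.28 ± 0.15, edgeR adjusted p = 0.767). sod-2 and sod-4 averaged 28.8 ± 4.55 and 94.4 ± 37.05 CPM in daf-2 RNAi larvae, against 25.5 ± 4.73 and 103.5 ± 32.8 CPM in empty vector larvae. Among catalases, ctl-1 and ctl-3 had log2 fold changes of 0.37 ± 0.14 and 0.41 ± 0.14, and ctl-2 had -0.18 ± 0.17, none of which passed. Of the 11 superoxide dismutase, catalase and peroxiredoxin genes measured, 2 rose, against 0.145% of all genes tested, and none fell. Their median log2 fold change was 0.22, which was 0.10 without replicate 1. Without replicate 2, 1 of the 11 passed.

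djr-1.2, from the DJ-1 family of enzymes that detoxify reactive aldehydes, had 19.8, 10.4, 15.04 and 5.60 CPM in daf-2 RNAi larvae and 1.06, 2.24, 3.402 and 0.651 CPM in empty vector larvae. The lowest daf-2 RNAi library, replicate 4, was still above the highest empty vector library, replicate 3. The log2 fold change was 2.78 ± 0.37 (edgeR adjusted p = 0.0178). Its paralog djr-1.1 had 43.6, 32.5, 44.03 and 33.7 CPM in daf-2 RNAi larvae against 56.5, 27.6, 46.7 and 34.2 CPM in empty vector larvae, with interleaved groups and a log2 fold change of -0.06 ± 0.16. The glyoxalase gene glod-4 lay between them at 0.54 ± 0.17 (edgeR adjusted p = 0.413).

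mtl-1, one of the metal-binding metallothionein genes, differed by nearly the same factor in every pair. Its levels were 514, 205, 366 and 279 CPM in daf-2 RNAi larvae and 265, 104.5, 190 and 148 CPM in empty vector larvae, and its pair differences were 0.96, 0.97, 0.95 and 0.91 on the log2 scale. The groups overlapped, with replicates 1 and 3 high in both, and the difference was seen within replicate numbers, with a log2 fold change of 0.95 ± 0.13 (edgeR adjusted p = 0.0200 with the block and 1.00 without it). mtl-1 was the 1 called gene among 16 measured metal and heme genes, against 0.145% of all genes tested called higher. The median of the 16 was 0.03 and lay between -0.09 and 0.07 when 1 replicate number was left out. The iron-storage ferritin gene ftn-1 had the next lowest p of that group, with 186, 76.4, 126 and 111 CPM in daf-2 RNAi larvae against 100.3, 41.9, 84.7 and 72.5 CPM in empty vector larvae (log2 fold change 0.73 ± 0.14, edgeR adjusted p = 0.0762).

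lea-1, which encodes a late embryogenesis abundant protein that protects against drying, had 143, 84.2, 82.9 and 95.6 CPM in daf-2 RNAi larvae and 28.96, 50.01, 32.8 and 33.4 CPM in empty vector larvae. The groups did not overlap and the pair difference was largest in replicate 1. The log2 fold change was 1.46 ± 0.22 (edgeR adjusted p = 0.0267). lea-1 overlaps acl-2 in the RefSeq annotation, and acl-2 had a log2 fold change of -0.04. ugt-1, from the family of enzymes that couple sugars to foreign or waste compounds, had 26.1, 13.9, 19.2 and 13.3 CPM in daf-2 RNAi larvae against 8.65, 3.31, 6.10 and 6.83 CPM in empty vector larvae, again without overlap (log2 fold change 1.56 ± 0.24, edgeR adjusted p = 0.0317). It was the 1 of 49 measured family members that passed, against 0.145% of all genes tested called higher. ugt-6 lay outside the threshold at 1.33 ± 0.25 (edgeR adjusted p = 0.0762), and the median of the family was 0.09, against -0.01 without replicate 3.

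Of 31 measured genes on the list of genes reported higher when insulin signalling is low, 5 rose (sod-3, sod-5, djr-1.2, mtl-1 and lea-1), none fell and 25 had a positive log2 fold change, with a median of 0.46. That median was 0.32, 0.66, 0.16 and 0.57 without replicates 1, 2, 3 and 4 in turn, and 2 of the 31 genes passed without replicate 2 or without replicate 4. Over all genes tested, 20 of 13817 rose (0.145%), 7135 were positive and the median was 0.01. The list was put together with earlier results of these data known, so its count is a description. The small heat shock genes hsp-12.3 and hsp-12.6 had log2 fold changes of 0.81 ± 0.20 and 0.56 ± 0.14, and the transthyretin-like gene ttr-44 had 0.62 ± 0.14 (edgeR adjusted p = 0.183, 0.210 and 0.141). The alcohol dehydrogenase gene sodh-1, on the same list, had the opposite sign: 48.9, 79.15, 121 and 50.7 CPM in daf-2 RNAi larvae against 68.5, 238, 227 and 62.9 CPM in empty vector larvae, lower in 4 of 4 pairs (log2 fold change -0.83 ± 0.20, edgeR adjusted p = 0.174). Of 14 measured genes on the matching list of genes reported lower, none passed, 5 were positive and the median was -0.13, which was -0.21 without replicate 1 and -0.28 without replicate 4. Without replicate 3 or replicate 4, 1 of the 14 passed, as lower.

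**Figure D2:**
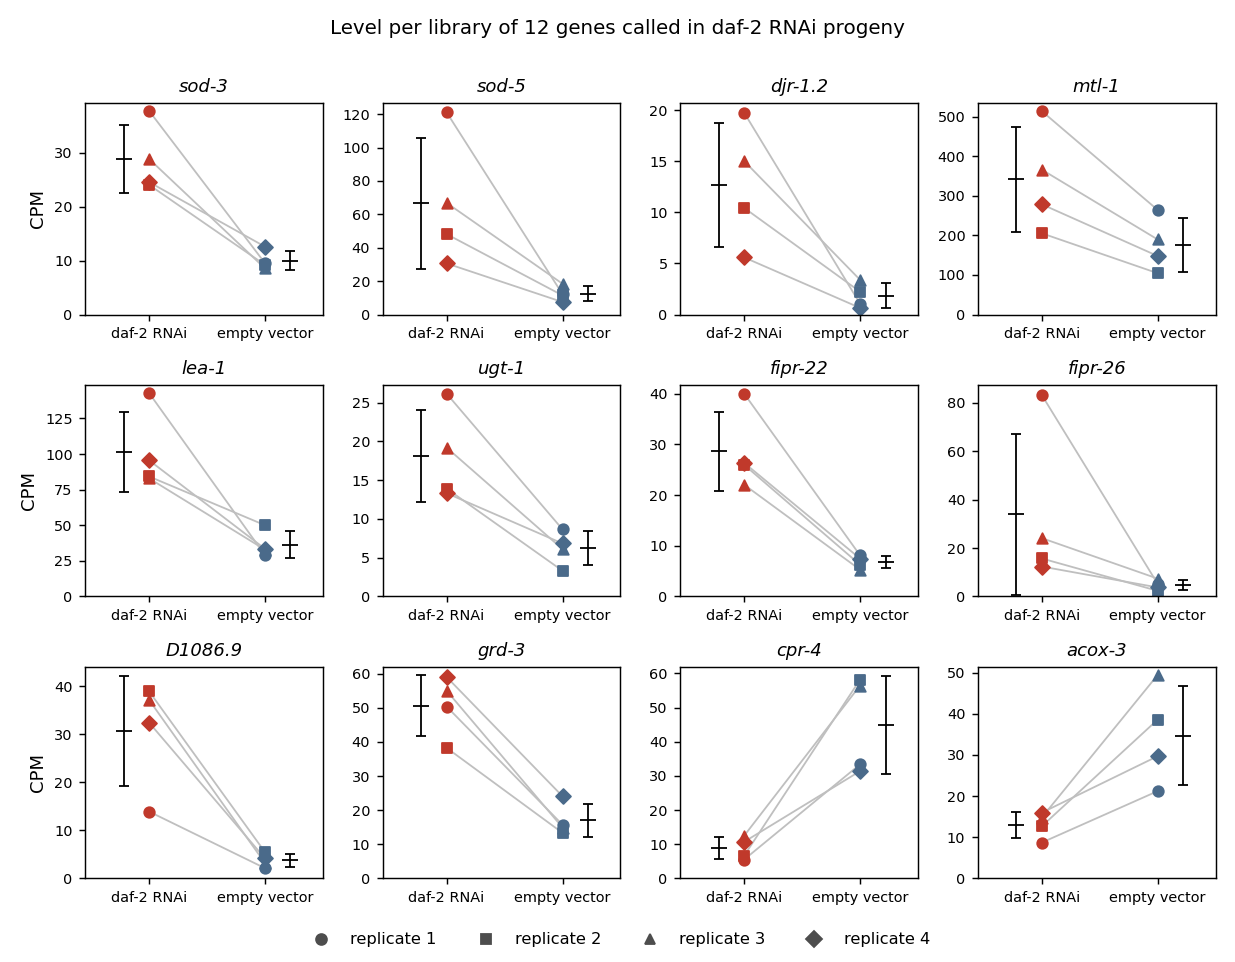
CPM per library (y axis, linear, each panel on its own scale) of 12 called genes in daf-2 RNAi larvae (left, red) and empty vector larvae (right, blue). Symbols give the replicate number, grey lines join same-numbered libraries and bars are the mean ± SD of 4 libraries; 10 genes are higher and 2, cpr-4 and acox-3, lower in every daf-2 RNAi library than in its partner.

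None of 25 measured heat shock genes passed, while 20 had a positive log2 fold change and the median was 0.36. The largest difference among them was F08H9.4, a small heat shock protein gene, with 433, 95.8, 99.5 and 77.4 CPM in daf-2 RNAi larvae and 21.5, 24.0, 37.2 and 15.9 CPM in empty vector larvae. Although all daf-2 RNAi libraries were higher, replicate 1 stood far above the other 3, and the log2 fold change of 2.46 ± 0.42 missed the threshold (edgeR adjusted p = 0.0831). Without replicate 1 it was 1.89. The pair medians of the 25 genes were 0.74, -0.11, 0.92 and -0.01 for replicates 1 to 4, and the positive ones were those of replicates 1 and 3. The median of 0.36 was 0.22, 0.55, 0.01 and 0.57 without replicates 1, 2, 3 and 4 in turn, and 1 of the 25 passed without replicate 1.

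Another 4 genes named here for their families missed the threshold. ant-1.2, an adenine nucleotide translocator gene, had 20.7, 3.64, 8.21 and 4.83 CPM in daf-2 RNAi larvae against 0.706, 1.25, 1.06 and 1.38 CPM in empty vector larvae, while the abundant translocator ant-1.1 averaged 5654 ± 908.5 CPM in daf-2 RNAi larvae and 6195 ± 456.5 CPM in empty vector larvae (SD, n = 4 each). alh-2, of the aldehyde dehydrogenase family, had 5.31, 8.72, 6.93 and 5.09 CPM in daf-2 RNAi larvae against 0.53, 2.24, 0.704 and 0 CPM in empty vector larvae. The groups were apart for both genes, and their log2 fold changes were 2.64 ± 0.49 and 3.27 ± 0.60 (edgeR adjusted p = 0.0762 for each). gst-15, a glutathione S-transferase gene, and cyp-34A9, a cytochrome P450 gene, had 0.88 ± 0.18 and 0.92 ± 0.19 (edgeR adjusted p = 0.110 and 0.111), also without overlap.

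Of the 20 higher genes, fipr-22, fipr-23 and fipr-26 belong to the fipr family. fipr-22 had 40.04, 25.99, 22.1 and 26.4 CPM in daf-2 RNAi larvae and 8.12, 6.26, 5.28 and 7.48 CPM in empty vector larvae, with the smallest error of the 3 (log2 fold change 2.05 ± 0.19, edgeR adjusted p = 0.00205). fipr-23 had 32.3, 22.3, 21.7 and 24.0 CPM in daf-2 RNAi larvae against 6.004, 8.68, 6.45 and 6.59 CPM in empty vector larvae (1.83 ± 0.22, edgeR adjusted p = 0.00888). Both pairs of groups were far apart and each group was tight. The genes are C37A5.2 and C37A5.4, neighbours of 1 family, so how the counting divided reads between them is uncertain and they may not be separate observations. fipr-26 had 83.4, 15.7, 24.1 and 12.4 CPM in daf-2 RNAi larvae against 5.30, 2.33, 7.39 and 3.74 CPM in empty vector larvae, with replicate 1 far above the rest (2.50 ± 0.35, edgeR adjusted p = 0.0200). fipr-24 followed the same shape at 25.4, 4.27, 4.55 and 3.05 CPM in daf-2 RNAi larvae against 2.65, 0.984, 2.93 and 2.03 CPM in empty vector larvae and did not pass (1.62 ± 0.46, edgeR adjusted p = 0.297). Of 11 measured members of the family 6 had a negative log2 fold change, among them the abundant fipr-1 at 164, 102, 139 and 98.2 CPM in daf-2 RNAi larvae and 128, 133, 192 and 106 CPM in empty vector larvae.

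Both called members of the hedgehog-related grd family, which encode secreted proteins, were higher. grd-3 had 50.4, 38.3, 55.01 and 59.03 CPM in daf-2 RNAi larvae and 15.7, 13.3, 14.9 and 24.1 CPM in empty vector larvae (log2 fold change 1.59 ± 0.17, edgeR adjusted p = 0.00258). grd-10 had 66.6, 24.1, 34.4 and 45.1 CPM in daf-2 RNAi larvae against 17.7, 12.97, 18.1 and 17.2 CPM in empty vector larvae (1.28 ± 0.20, edgeR adjusted p = 0.0362). Neither gene had overlapping groups, and replicate 1 was high for grd-10 but not for grd-3. The related grd-5 and grl-4 had 0.66 ± 0.19 and 0.58 ± 0.20 and did not pass (edgeR adjusted p = 0.333 and 0.455). The family was not counted as a list, so these genes do not stand for its other members.

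ttr-15, of the transthyretin-like family of secreted proteins, had 268, 135, 234 and 149 CPM in daf-2 RNAi larvae and 134, 88.02, 125 and 80.8 CPM in empty vector larvae. Its lowest daf-2 RNAi library was just above the highest empty vector library (log2 fold change 0.85 ± 0.14, edgeR adjusted p = 0.0387). ttr-15 was the 1 of 46 measured family members that passed, against 0.145% of all genes tested called higher. paic-1, an enzyme of purine synthesis, was tight in both groups, at 25.9, 22.1, 25.2 and 23.1 CPM in daf-2 RNAi larvae against 8.30, 11.2, 9.85 and 11.5 CPM in empty vector larvae (1.23 ± 0.20, edgeR adjusted p = 0.0391). paic-1 overlaps try-9, for which there was no tested value, and without strand reads from a stretch they share cannot be told apart. clx-1 had 70.4, 21.2, 23.8 and 15.3 CPM in daf-2 RNAi larvae against 1.77, 5.19, 4.93 and 3.74 CPM in empty vector larvae. Replicate 1 of clx-1 was extreme in both groups, high under daf-2 RNAi and low under empty vector. The log2 fold change of 2.71 ± 0.43 (edgeR adjusted p = 0.0381) was 2.102 without replicate 1.

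Another 6 higher genes carry only a sequence name in the files. D1086.9 had the smallest p of all, with 13.9, 38.9, 37.1 and 32.4 CPM in daf-2 RNAi larvae and 2.12, 5.46, 3.17 and 4.15 CPM in empty vector larvae. Its daf-2 RNAi replicate 1 was the lowest of its group, and the groups were far apart (log2 fold change 3.02 ± 0.22, edgeR adjusted p = 0.000394). F56D6.9 had 111, 49.98, 76.5 and 41.1 CPM in daf-2 RNAi larvae against 26.8, 7.69, 21.9 and 13.6 CPM in empty vector larvae (2.02 ± 0.19, edgeR adjusted p = 0.00205). F56D6.9 overlaps oac-21 in the RefSeq annotation and the libraries carry no strand, so its reading is uncertain where the genes share sequence. C54F6.15 rested on few reads, 214 over the daf-2 RNAi libraries and 10 over the empty vector libraries, 1 of which had none. Its log2 fold change of 4.11 ± 0.60 (edgeR adjusted p = 0.0250) is the largest of the called genes and has the widest error. Y39A3CL.4, T28C6.10 and R09E10.13 had 1.26 ± 0.18, 2.28 ± 0.37 and 1.35 ± 0.22 (edgeR adjusted p = 0.0250, 0.0421 and 0.0455). R09E10.13 was at 242 CPM in daf-2 RNAi replicate 1 and at 26.7 to 56.5 CPM in the other 3, against 12.28 to 52.97 CPM in empty vector larvae, so its groups overlapped. The genes that overlap Y39A3CL.4 and T28C6.10, which are Y39A3CL.3 and grsp-2, had log2 fold changes of -0.38 and -0.06.

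On the lower side, cpr-4 encodes a secreted cathepsin B-like cysteine protease of the gut. Its levels were 5.50, 6.63, 12.5 and 10.7 CPM in daf-2 RNAi larvae and 33.4, 58.1, 56.4 and 31.4 CPM in empty vector larvae. Every daf-2 RNAi library lay far below every empty vector library, and the log2 fold change was -2.35 ± 0.25 (edgeR adjusted p = 0.00258). In bulk RNA of whole larvae, a smaller share of gut RNA and less cpr-4 RNA within gut cells cannot be told apart. cpr-4 was the 1 called gene among 11 measured cathepsin-type protease genes, against 0.0289% of all genes tested called lower. All 11 had a negative log2 fold change, with a median of -0.53 against 0.01 for all genes. Against 1.06% of all genes tested, 5 of the 11 were lower without overlap. Besides cpr-4 these were cpr-1 at 13.9, 20.1, 14.2 and 24.7 CPM in daf-2 RNAi larvae against 43.4, 70.4, 42.7 and 30.005 CPM in empty vector larvae, cpr-2, cpr-9 and cpz-1. The log2 fold changes of those 4 were -1.33 ± 0.24, -0.72 ± 0.15, -0.75 ± 0.18 and -0.21 ± 0.13 (edgeR adjusted p = 0.0762, 0.129, 0.168 and 0.825). With DESeq2, a second test method used with the same block, their adjusted p was 0.000103, 0.0026, 0.0174 and 0.948 in the same order. The cathepsin L gene cpl-1 had 273 ± 23.06 CPM in daf-2 RNAi larvae and 301 ± 17.6 CPM in empty vector larvae (SD, n = 4 each) and did not pass. None of 13 measured aspartyl protease genes, the other large class of gut proteases, passed.

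Among 21 measured intestine markers, 1 fell, against 0.0289% of all genes tested. It was cpr-4, the gene already counted among the cathepsin-type proteases. Of the 21, 18 had a negative log2 fold change, against 6682 of 13817 genes tested, and the median was -0.21. Their summed level was 3389, 4952, 4915 and 6378 CPM in daf-2 RNAi larvae and 5245, 5583, 5507 and 5858 CPM in empty vector larvae. daf-2 RNAi replicate 1 was the lowest and replicate 4 the highest of the 8, and the daf-2 RNAi library was higher in 1 of 4 pairs. The exact permutation test, two-sided, gave p = 0.371, and the exact sign-flip test over the 4 pairs gave p = 0.250. The peptide transporter pept-1 had 16.498, 23.6, 22.1 and 26.7 CPM in daf-2 RNAi larvae against 27.7, 49.02, 33.7 and 39.1 CPM in empty vector larvae, and elt-2, the transcription factor that sets gut identity, had 5.98, 8.27, 8.51 and 8.74 CPM in daf-2 RNAi larvae against 15.01, 13.2, 9.62 and 13.4 CPM in empty vector larvae. Both were lower in 4 of 4 pairs without overlap, and neither passed (log2 fold change -0.74 ± 0.16 and -0.69 ± 0.25, edgeR adjusted p = 0.143 and 0.511). The part of the gut's share of RNA in the cpr-4 difference was not tested.

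acox-3 encodes an acyl-CoA oxidase, the class of enzyme that opens peroxisomal beta-oxidation of fatty acids and of ascaroside pheromone side chains. It had 8.68, 12.63, 14.7 and 15.9 CPM in daf-2 RNAi larvae and 21.2, 38.6, 49.4 and 29.7 CPM in empty vector larvae. The groups did not overlap, and the log2 fold change was -1.39 ± 0.19 (edgeR adjusted p = 0.0200). acox-1 had 3.86, 5.997, 6.33 and 6.87 CPM in daf-2 RNAi larvae against 9.36, 21.3, 13.4 and 10.8 CPM in empty vector larvae, also apart, and did not pass (-1.21 ± 0.26, edgeR adjusted p = 0.131). Further along the pathway the differences were smaller: the thiolase gene daf-22 had -0.56 ± 0.16 and the dehydrogenase gene dhs-28 had -0.38 ± 0.20 (edgeR adjusted p = 0.315 and 0.778). Of 19 measured peroxisomal beta-oxidation genes 1 fell, against 0.0289% of all genes tested, and 7 were positive. The median was -0.09, which was -0.16 without replicate 1 and -0.27 without replicate 4. Without replicate 2, none of the 19 passed. Of 25 genes of mitochondrial beta-oxidation and lipases none passed, and the lysosomal lipase lipl-1 had the largest difference, with 0.675, 1.45, 0.594 and 0.848 CPM in daf-2 RNAi larvae against 4.41, 3.94, 3.75 and 2.28 CPM in empty vector larvae (log2 fold change -1.999 ± 0.48, edgeR adjusted p = 0.174). None of 19 fatty acid synthesis genes passed, 3 were positive and the median was -0.18. pod-2, the acetyl-CoA carboxylase that starts that pathway, had -0.47 ± 0.14 (edgeR adjusted p = 0.350).

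The other lower genes were F08F3.4 and sup-6. F08F3.4 had 18.2, 25.9, 28.5 and 14.7 CPM in daf-2 RNAi larvae and 44.9, 50.01, 58.3 and 26.5 CPM in empty vector larvae, lower in every pair, with overlap only through empty vector replicate 4 (log2 fold change -1.03 ± 0.16, edgeR adjusted p = 0.0317). sup-6 is a small nuclear RNA in the Ensembl annotation. It had 37.05, 10.2, 23.8 and 7.12 CPM in daf-2 RNAi larvae against 151, 16.6, 88.1 and 21.06 CPM in empty vector larvae, high in replicates 1 and 3 and low in replicates 2 and 4 of both groups (-1.57 ± 0.21, edgeR adjusted p = 0.0200). Neither small nuclear RNA nor ribosomal RNA carries a poly(A) tail. The ribosomal RNA share was 18.7%, 27.5%, 35.3% and 18.9% of the gene counts in daf-2 RNAi replicates 1 to 4 and 46.9%, 26.3%, 42.0% and 28.3% in empty vector replicates 1 to 4, and its part in the sup-6 difference was not tested. F58G1.7, which overlaps it, had a log2 fold change of 0.02. In the fit of all 12 libraries the sup-6 edgeR adjusted p was 0.324.

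**Figure D3:**
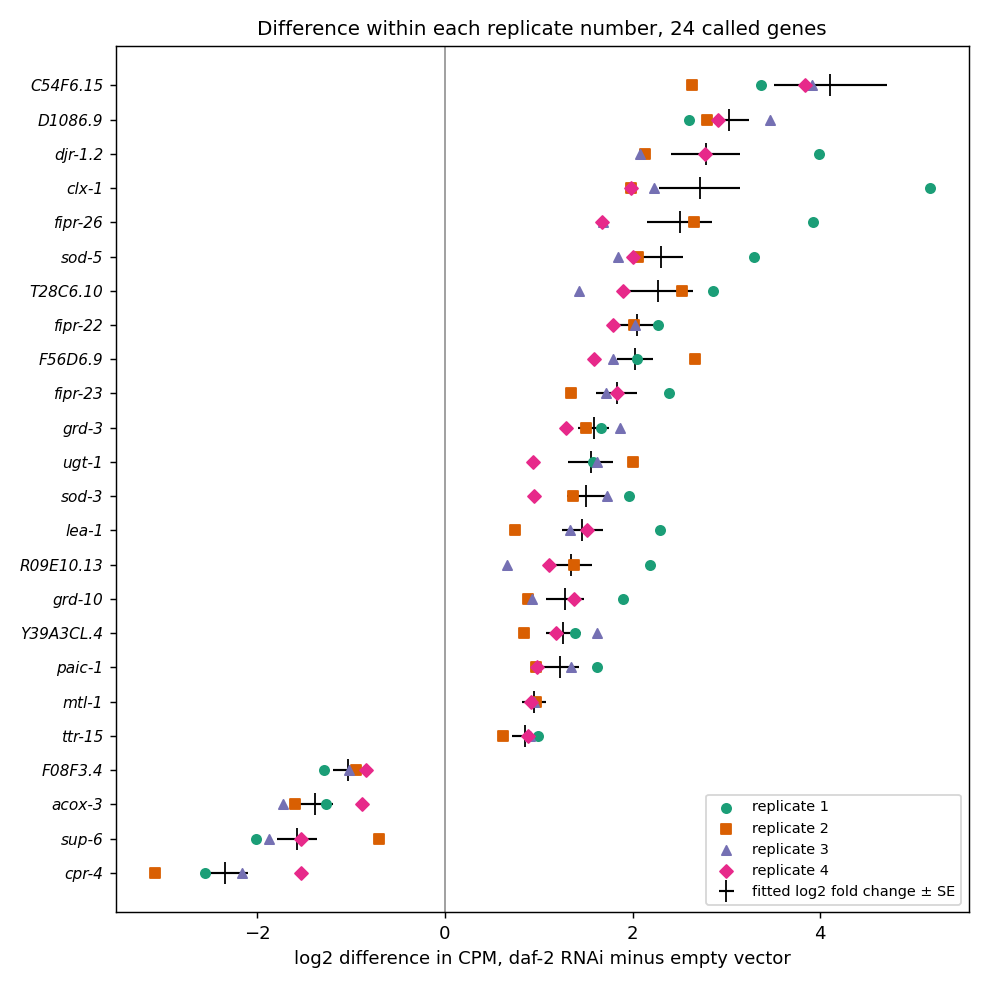
log2 difference in CPM, daf-2 RNAi minus empty vector, within each replicate number (x axis) for the 24 called genes (y axis). Coloured symbols are the 4 pairs and black crosses the fitted log2 fold change ± SE; every symbol lies on the same side of 0 as its cross, and replicate 1 gives the largest difference for 13 of the 20 higher genes.

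The size of the called differences varied between pairs. For the 20 higher genes the median pair difference was 2.23, 1.75, 1.70 and 1.55 on the log2 scale in replicates 1 to 4, and for the 4 lower genes it was -1.65, -1.27, -1.80 and -1.21. Replicate 1 gave the largest difference for 13 of the 20 higher genes, replicate 3 for 4, replicate 2 for 3 and replicate 4 for none. Fitted within replicates 1 and 3 alone and within replicates 2 and 4 alone, all 24 kept their direction, which follows from their shared direction in 4 of 4 pairs. Of the 24, 22 had the larger difference in replicates 1 and 3. sod-3, for example, had 1.87 in replicates 1 and 3 and 1.16 in replicates 2 and 4, lea-1 had 1.82 and 1.13 in the same order, and cpr-4 had -2.38 and -2.32. Leaving out each replicate number in turn, 6 genes passed in all 4 fits: D1086.9, fipr-22, F56D6.9, sod-5, grd-3 and cpr-4. Another 6 passed in 3 of the fits, 9 in 2 and 3 in 1. Without replicate 1, 74 genes passed, 39 higher and 35 lower, and all 24 were among them. Of the 24, 9 passed without replicate 2, 21 without replicate 3 and 9 without replicate 4. DESeq2 with the block called 143 genes (1.03%), the 24 included.

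Transcripts of the germline and the maternal store served as markers of other cells and earlier stages. None of 29 measured genes passed (1 without replicate 1 or without replicate 4), while 27 had a positive log2 fold change and the median was 0.92. Their summed level was 99.0, 377, 324 and 131 CPM in daf-2 RNAi larvae and 106, 158, 73.7 and 116 CPM in empty vector larvae. daf-2 RNAi replicates 2 and 3 were high and replicates 1 and 4 lay within the empty vector range, so the groups overlapped (exact permutation test, two-sided, p = 0.229; exact sign-flip test over the 4 pairs, p = 0.250, of which 0.125 is the smallest possible). pos-1, an RNA-binding protein of the early embryo, had 14.6, 67.0, 62.03 and 5.85 CPM in daf-2 RNAi larvae against 4.41, 13.3, 5.396 and 4.31 CPM in empty vector larvae (log2 fold change 2.07 ± 0.39, edgeR adjusted p = 0.0767). spn-4 and mex-5, with related roles, had 1.58 ± 0.32 and 1.67 ± 0.43 and showed the same 2 high libraries (edgeR adjusted p = 0.111 and 0.220). With DESeq2 and the block, the adjusted p of pos-1, spn-4 and mex-5 was 1.04e-05, 0.00214 and 0.024.

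DNA replication and cell cycle genes followed the same libraries. None of 46 measured genes passed, 41 were positive and the median was 0.52, which was 0.29 without replicate 3. Without replicate 4, 1 of the 46 passed. Their summed level was 419, 843, 882 and 494 CPM in daf-2 RNAi larvae against 368, 527, 418 and 495 CPM in empty vector larvae (exact permutation test, two-sided, p = 0.229, and exact sign-flip test over the 4 pairs, p = 0.250). The sliding clamp gene pcn-1 had 14.2, 43.8, 51.6 and 13.7 CPM in daf-2 RNAi larvae against 7.06, 16.01, 12.08 and 12.604 CPM in empty vector larvae, and the helicase subunit mcm-3 had 8.39, 27.6, 22.95 and 11.5 CPM in daf-2 RNAi larvae against 5.83, 9.21, 5.28 and 8.21 CPM in empty vector larvae (log2 fold changes 1.18 ± 0.28 and 1.19 ± 0.30, edgeR adjusted p = 0.174 and 0.190). DESeq2 with the block gave adjusted p of 0.0126 for pcn-1 and 0.0316 for mcm-3. The part of germline and cell cycle transcripts in the called differences was not tested.

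**Figure D4:**
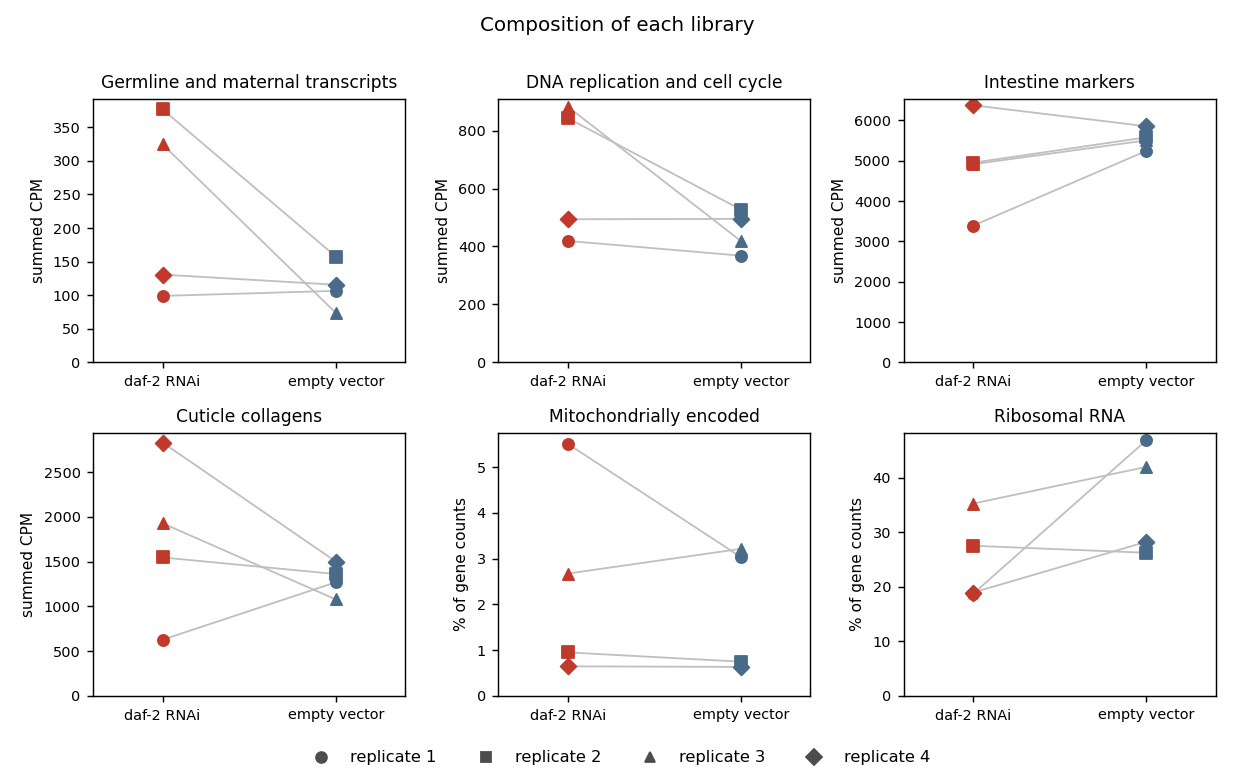
Summed CPM of 4 gene lists and the percent of gene counts in mitochondrially encoded genes and ribosomal RNA (y axes, linear from 0) in daf-2 RNAi libraries (left, red) and empty vector libraries (right, blue), with same-numbered libraries joined. Germline transcripts reach 377 and 324 CPM in daf-2 RNAi replicates 2 and 3 against at most 158 CPM under empty vector, and mitochondrial RNA is high in replicates 1 and 3 of both groups.

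Cuticle collagens show how far the pairs could diverge. Of 60 measured genes none passed, and the pair medians were -0.99, -0.08, 0.82 and 0.84 in replicates 1 to 4. The summed collagen level was 627, 1546, 1928 and 2830 CPM in daf-2 RNAi larvae and 1269, 1361, 1077 and 1500 CPM in empty vector larvae, with the lowest and the highest of the 8 libraries both under daf-2 RNAi. The median over the 60 genes was 0.15, against 0.43 without replicate 1, -0.05 without replicate 3 and -0.04 without replicate 4. Neuropeptide genes leaned the other way: 28 of 30 measured FMRFamide-like genes and 58 of 71 neuropeptide-like genes had a negative log2 fold change, with medians of -0.24 and -0.20, and none passed. The pair medians were 0.27, -0.07, -0.75 and -0.29 for the FMRFamide-like genes and 0.22, -0.04, -0.73 and -0.28 for the neuropeptide-like genes, so replicate 1 had the opposite sign in both lists. Without replicate 1 the medians were -0.39 and -0.36, and without replicate 3 they were -0.04 and -0.05. The summed level of neuron markers was lower in 4 of 4 pairs, at 2091, 2664, 2132 and 2919 CPM in daf-2 RNAi larvae against 2787, 2995, 2322 and 3028 CPM in empty vector larvae (exact sign-flip test, p = 0.125, the smallest possible, and exact permutation test, two-sided, p = 0.200). Of 79 ribosomal protein genes none passed, 12 were positive and the median was -0.10, which was 0.00 without replicate 3.

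**Figure D5:**
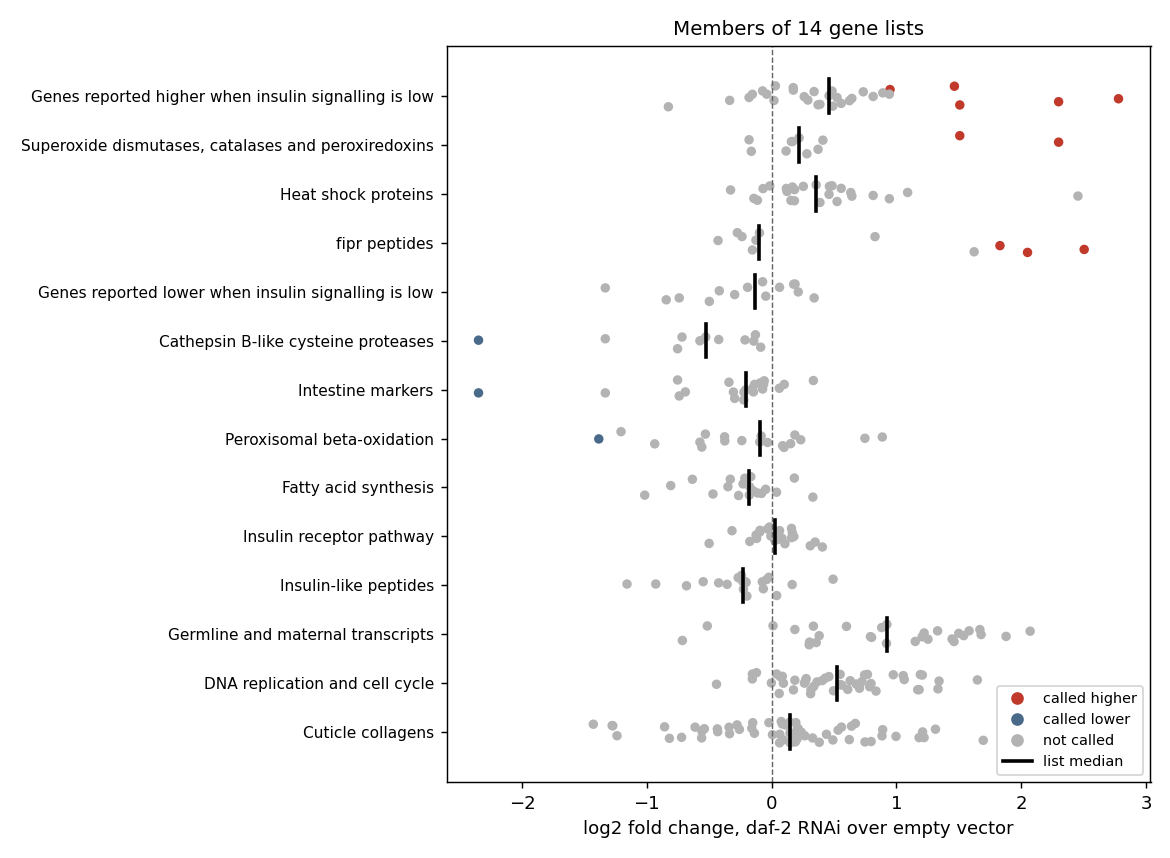
log2 fold change of daf-2 RNAi over empty vector (x axis) for each measured member of 14 gene lists (y axis), 1 point per gene, with black bars at the list medians. Called genes are red (higher) or blue (lower); the germline list has the highest median at 0.92 and no called gene, and the cathepsin list has the lowest at -0.53 with cpr-4 called.

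The 24 genes can be set beside the authors' own test. Of the genes in the authors' deposited table of this comparison, 12361 were tested here. Among these, the same 24 had a false discovery rate under 0.05 in that table, and their log2 fold changes there differed by at most 0.0142 from those given here. The submitters also used edgeR on these libraries, so the match is no separate support. The variable of the batch correction behind that table is not given in the sources used here.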

How the data were processed

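For every library the authors deposited a table of raw counts for 44968 gene entries. It ends in 5 summary lines, which were left out of library sizes and tests. In the 8 libraries used, 1.99% to 4.33% of reads lay in no feature, 4.78% to 8.45% were ambiguous, and 16.3% to 28.0% were not aligned. Bowtie 1.2.2, HTSeq and edgeR are named in the submitters' processing notes. Coordinates are left out, since the build was not given in the sources used here. The authors' deposited table of daf-2 RNAi against empty vector gives log2 fold changes, a test statistic (a score), p-values and false discovery rates for 12395 genes, and entered no test here. It named 12318 of the identifiers in the count tables, the Ensembl annotation of WBcel235 named 32167 more and 483 matched neither. Overlaps between genes came from RefSeq, also of WBcel235.

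Counts as deposited were fitted with edgeR 4.0.16 in R 4.3.3: filterByExpr, TMM, the robust quasi-likelihood fit of the 8 libraries with replicate number as a block (3 residual degrees of freedom), two-sided tests and Benjamini-Hochberg adjustment over all 13817 genes tested. Positive values mean higher in daf-2 RNAi larvae. SE was computed from the log2 fold change and the F statistic, and so restates the test. Pair differences are log2 CPM with a prior count of 2. Replicate number was the pairing variable of the planned comparison, and the labels do not say what a number shares. Same-numbered libraries correlated over 0.1 in every pair. Yet daf-2 RNAi replicate 1 correlated more with empty vector replicate 3 (0.694), and daf-2 RNAi replicate 4 correlated at 0.483 with empty vector replicate 2. The labels call the libraries biological replicates, but nothing in them says that libraries of a group came from separate cultures. The p-values of the fit with the block rest on the spread of these libraries that remains after replicate number is taken out. The common biological coefficient of variation was 0.246 with the block and 0.340 without it.

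The genes, gene lists and tests were chosen with earlier results of these data known. Named are all genes called, the genes called without the block, daf-2, pitr-1 and hrde-1, and from each list up to 4 tested members of smallest p, many of which are given only through the counts of their list, with 1 gene not reported here; paralogs and contrasting members such as djr-1.1, ant-1.1, sod-1, cpl-1, fipr-1, elt-2 and daf-16 were named after their values were seen, as were genes overlapping a called gene. Lists are described by counts and medians, with no set test. Library sums were compared by exact permutation and sign-flip tests; over 14 such measures every adjusted p of the permutation test was at least 0.800. Alternatives were no block, all 12 libraries, DESeq2-type size factors (RLE), DESeq2 1.42.0, no filter, ribosomal RNA left out, each replicate number left out, and replicates 1 and 3 or 2 and 4 alone. No gene sequence was used here.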

Additional observations from a re-analysis of the deposited data

Results flagged for a closer look

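In each group of 4 libraries, a value was singled out when 1 library's gap to its nearest neighbour took most of the group's range (Dixon's test at 95%). This happened in 12 of 198 groups of values checked (6.06%), and chance alone flags about 1 in 20 groups; 8 of the 12 concern daf-2 RNAi replicate 1.

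In daf-2 RNAi replicate 1 the level stood above the other 3 daf-2 RNAi libraries for fipr-26 (83.4 CPM against 12.4 to 24.1 CPM), clx-1 (70.4 against 15.3 to 23.8 CPM) and T28C6.10 (10.2 against 6.28 to 6.63 CPM). The same held for R09E10.13 (242 against 26.7 to 56.5 CPM), F08H9.4 (433 against 77.4 to 99.5 CPM), fipr-24 (25.4 against 3.05 to 4.55 CPM) and the neuropeptide gene flp-3 (318 against 214 to 230 CPM). In the same library elt-2 (5.98 against 8.27 to 8.74 CPM) stood below the others. In daf-2 RNAi replicate 3 the gene counts, 10502750 reads, were above the 9640590 to 9701471 reads of the other 3.

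In empty vector replicate 2, grd-10 was low (13 against 17.2 to 18.1 CPM) and pos-1 was high (13.3 against 4.31 to 5.396 CPM). In empty vector replicate 1 the summed level of epidermis and molting genes was low (256 against 325 to 333 CPM).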

How the results depend on the processing

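The count of called genes, 24 with 4 of them lower, depended on the fit. Without the replicate block, the numbers being treated as unpaired, 4 genes were called, 1 of them lower. With all 12 libraries and the block it was 46 genes, 19 of them lower, and 19 of the 24 were kept; Y39A3CL.4, C54F6.15, clx-1, R09E10.13 and sup-6 were not. RLE size factors gave the same 24, and leaving out ribosomal RNA gave 25 with all 24 kept. DESeq2 with the block called 143 genes, 65 of them lower, and the fit with no filter on low counts, which tested 29339 genes, called 205, 93 of them lower; both kept all 24. Of 85 genes checked singly, 57 had the same call with DESeq2 as in the edgeR fit of the 8 libraries with the block. The other 28 had not passed in that edgeR fit and were called by DESeq2. With all 12 libraries, 70 had the same call, 10 more were called and 5 were not kept. Genes said here not to pass are those of the edgeR fit of the 8 libraries with the block. Leaving out 1 replicate number at a time gave 9 to 74 genes, 2 to 35 of them lower. Omitting replicate 1 left 74 calls, omitting replicate 2 left 9, omitting replicate 3 left 30 (7 lower) and omitting replicate 4 left 15. Replicates 1 and 3 alone gave 40 genes, 5 of them lower, and replicates 2 and 4 alone 158, 80 of them lower, with 1 residual degree of freedom each. The causes of these shifts were not tested.

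Over the 24 called genes and all alternatives, 288 values were computed: 220 kept direction and call, 68 kept direction only, and none reversed. As each of the 24 had the same direction in all its pairs, the lack of reversals is no separate support. Beyond the 24, signs were compared only for the other genes of the 85 checked singly, not for all genes tested. Medians of gene lists were not counted here, and some changed sign, as given with their lists. Reversals of sign occurred in 5 genes that were not called, whose log2 fold changes were close to 0: djr-1.1 (0.035 without replicate 1 and 0.10 in replicates 2 and 4 alone, against -0.158 without replicate 2), sod-2 (-0.0096 without replicate 1 and -0.16 in replicates 2 and 4 alone, against 0.36 without replicate 4), sod-4 (0.0055 without replicate 3, against -0.40 without replicate 1), daf-16 (0.0037 in replicates 1 and 3 alone) and pitr-1 (-0.056 without replicate 1, -0.045 without replicate 2 and -0.017 in replicates 2 and 4 alone, against 0.14 without replicate 4). A gene that did not pass is not shown to be equal between the groups. C54F6.15 is also limited by its 10 empty vector reads.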

Other observations

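Several genes among the lowest p of their lists were lower in daf-2 RNAi larvae in 4 of 4 pairs and did not pass the edgeR test with Benjamini-Hochberg adjustment. The C-type lectin clec-7 had 10.3, 8.54, 8.51 and 7.04 CPM in daf-2 RNAi larvae against 16.25, 19.7, 20.999 and 17.1 CPM in empty vector larvae, with no overlap (log2 fold change -1.11 ± 0.21, adjusted p = 0.0767). The lysozyme gene lys-1 had 69.0, 34.5, 63.1 and 27.8 CPM in daf-2 RNAi larvae against 81.4, 72.3, 95.6 and 47.8 CPM in empty vector larvae (-0.67 ± 0.16, adjusted p = 0.174). The trehalase gene tre-5, whose product splits the storage sugar trehalose, had 30.4, 15.9, 19.9 and 18.997 CPM in daf-2 RNAi larvae against 41.3, 25.3, 33.9 and 28.3 CPM in empty vector larvae (-0.61 ± 0.16, adjusted p = 0.228). The fasting-induced lipase gene fil-1 had 11.5, 9.18, 13.8 and 9.498 CPM in daf-2 RNAi larvae against 31.6, 19.9, 25.6 and 13.4 CPM in empty vector larvae (-0.99 ± 0.21, adjusted p = 0.126), and the lysosomal lipase gene lipl-5 had 17.6, 29.4, 38.5 and 40.6 CPM in daf-2 RNAi larvae against 51.6, 44.4, 48.1 and 59.2 CPM in empty vector larvae (-0.74 ± 0.20, adjusted p = 0.268).

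Some others were higher in 4 of 4 pairs without passing. The pharyngeal gland gene phat-4 had 12.5, 21.8, 21.3 and 9.41 CPM in daf-2 RNAi larvae against 3.18, 12.5, 4.93 and 4.96 CPM in empty vector larvae (log2 fold change 1.41 ± 0.28, edgeR adjusted p = 0.103). The transthyretin-like gene ttr-2 had 30.4, 16.36, 36.1 and 17.4 CPM in daf-2 RNAi larvae against 12.18, 12.8, 12.32 and 9.35 CPM in empty vector larvae, without overlap (1.03 ± 0.22, edgeR adjusted p = 0.141).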
